A study of Homo sapiens with 56 samples.

Results

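A fixed list of 39 splicing regulators was followed in colorectal cancer cells exposed to 2-methylisocitrate (2-MiCit): 13 genes of SR proteins and their relatives, 4 CLK kinases, 21 hnRNPs and PUF60. They were chosen by name, but with earlier results of these data known, so the list is not independent of them. All 39 were found by symbol among the 16485 genes of the first deposited count table and the 16454 genes of the last. The study treated 7 established human colorectal cancer lines with 10 mM 2-MiCit, a metabolite named in its title as cancer-associated and of microbial origin, or with water as vehicle, and sequenced stranded mRNA libraries. Each of the 14 groups held 4 libraries, 56 in all. HCT116, DLD1, LoVo and SW948 were in the first table, and HT29, SKCO1 (SK-CO-1) and SW1417 in the last. All lines were labelled wild-type epithelial cells of the colon, and the labels name no other drug. How long the cells were exposed, and whether the 4 libraries of a group were separate cultures, is not stated there. The p-values therefore describe the spread between libraries, which could be technical.

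SR proteins bind exonic enhancers through RNA recognition motifs and recruit the splicing machinery through a tail rich in arginine and serine. CLK kinases, together with SRPK kinases, phosphorylate that tail and so control where SR proteins sit in the nucleus and whether they act. The hnRNPs coat nascent transcripts and often oppose SR proteins at the same exons, and many genes of both families limit their own mRNA by splicing in an exon with a premature stop codon, which sends the transcript to nonsense-mediated decay.

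The SR and hnRNP genes with the largest drops in HCT116 were SRSF1 (chromosome 17, 58003360 to 58007346, minus strand), TRA2B (chromosome 3, 185915906 to 185938136, minus strand), HNRNPM (chromosome 19, 8444767 to 8489114, plus strand) and HNRNPDL (chromosome 4, 82422564 to 82430408, minus strand). CLK1 (chromosome 2, 200853009 to 200864744, minus strand) and CLK4 (chromosome 5, 178602664 to 178630615, minus strand) passed the test in no line. These gene spans are those of GENCODE on GRCh38. The promoter windows of these 6 genes are shown to set the members that fell beside those that did not. Each runs 5′ to 3′ on the gene's strand from 250 bases before the annotated start to 50 bases after it, from RefSeq on GRCh38.p14, and capitals mark the E-box letters CACGTG and the cyclic AMP response half-site TGACGT, or its reverse complement. The windows lie at chr17:58007197-58007496 (SRSF1), chr3:185937965-185938264 (TRA2B), chr19:8444725-8445024 (HNRNPM), chr4:82430413-82430712 (HNRNPDL), chr2:200864609-200864908 (CLK1) and chr5:178627001-178627300 (CLK4). Some members have more than 1 window, with 52 windows for 35 genes. The window shown is the first listed, except for HNRNPDL, where a later one was picked by hand. The CLK4 window lies wholly inside the gene span given above, and the HNRNPDL window wholly outside its own, before the gene's start. The first window listed for HNRNPDL is not shown. Where genes with a motif are counted, a gene counts if any of its windows held the letters.
SRSF1: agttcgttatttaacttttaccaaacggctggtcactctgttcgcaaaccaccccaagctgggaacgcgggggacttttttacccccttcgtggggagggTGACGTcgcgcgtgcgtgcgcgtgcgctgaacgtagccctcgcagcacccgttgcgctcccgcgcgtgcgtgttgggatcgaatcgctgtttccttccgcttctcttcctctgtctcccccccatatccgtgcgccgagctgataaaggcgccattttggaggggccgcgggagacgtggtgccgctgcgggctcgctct
TRA2B: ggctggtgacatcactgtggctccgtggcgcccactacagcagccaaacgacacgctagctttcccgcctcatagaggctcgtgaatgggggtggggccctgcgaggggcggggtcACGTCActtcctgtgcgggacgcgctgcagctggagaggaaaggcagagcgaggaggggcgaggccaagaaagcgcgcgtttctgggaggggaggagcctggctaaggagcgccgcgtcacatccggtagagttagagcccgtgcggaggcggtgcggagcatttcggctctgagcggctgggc
HNRNPM: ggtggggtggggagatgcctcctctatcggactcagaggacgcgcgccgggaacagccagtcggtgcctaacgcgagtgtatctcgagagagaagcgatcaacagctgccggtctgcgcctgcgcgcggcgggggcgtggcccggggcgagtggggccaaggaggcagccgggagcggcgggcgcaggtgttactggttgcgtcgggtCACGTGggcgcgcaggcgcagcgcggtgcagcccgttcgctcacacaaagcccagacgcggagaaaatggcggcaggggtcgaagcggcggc
HNRNPDL: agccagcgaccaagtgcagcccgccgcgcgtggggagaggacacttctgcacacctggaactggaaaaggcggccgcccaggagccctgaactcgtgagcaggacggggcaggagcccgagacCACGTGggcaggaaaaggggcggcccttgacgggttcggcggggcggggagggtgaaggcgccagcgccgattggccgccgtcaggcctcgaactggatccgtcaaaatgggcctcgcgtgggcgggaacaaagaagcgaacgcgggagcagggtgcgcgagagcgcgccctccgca
CLK1: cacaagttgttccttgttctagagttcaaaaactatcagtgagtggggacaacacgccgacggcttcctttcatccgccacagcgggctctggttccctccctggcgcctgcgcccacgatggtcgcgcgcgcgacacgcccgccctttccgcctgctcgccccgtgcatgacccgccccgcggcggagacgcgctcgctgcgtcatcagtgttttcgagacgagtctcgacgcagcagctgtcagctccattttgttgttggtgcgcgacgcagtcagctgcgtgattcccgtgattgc
CLK4: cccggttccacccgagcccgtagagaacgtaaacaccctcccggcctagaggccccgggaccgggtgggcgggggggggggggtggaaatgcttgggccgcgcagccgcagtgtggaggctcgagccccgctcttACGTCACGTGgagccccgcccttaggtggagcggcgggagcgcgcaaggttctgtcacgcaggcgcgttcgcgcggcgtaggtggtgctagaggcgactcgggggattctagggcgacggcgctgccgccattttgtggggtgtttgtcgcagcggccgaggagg
The CLK4 window held both motifs, and they overlapped there. Of the other windows shown, those of HNRNPM and HNRNPDL held the E-box, those of SRSF1 and TRA2B the half-site, and that of CLK1 neither. A window was on hand for 35 of the 39 members. The E-box, which reads the same on both strands, was in 19.2% of the 52 member windows (9 genes) and in 7.26% of all 35116 windows of the same 300 bases. The half-site, searched on both strands, was in 15.4% of member windows (8 genes) against 7.98% of all, and the CCAAT box, searched likewise, in 46.2% (21 genes) against 34.6%. The amino acid response element, searched as TGATGNAA on both strands, was in 0% of member windows against 3.62% of all. Letters in a window are a description and not a binding site.

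Libraries of the first table summed to 13.8 to 19.4 M counts and those of the last to 29.1 to 45.4 M, so counting error was smaller in HT29, SKCO1 and SW1417. Epithelial keratin and adhesion markers were present in all lines, but in HCT116 the levels of CDH17, CDX1, VIL1 and KRT20 stayed under 1 CPM (a count scaled to its library total). Of the leukocyte markers, LYZ was high in control SW948 (mean 1020 CPM) and HT29 (1740 CPM), and fibroblast and endothelial lists summed to no more than 23.1 CPM in any library. In these bulk libraries fewer cells with a transcript and less of it per cell cannot be told apart.

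Scaled per transcript length (counts per base of the median annotated transcript, scaled as TPM are), HNRNPA1, which shuttles mRNA and silences exons, was the most abundant member in control cells of all 7 lines. Its level was 2020 ± 23.2 in HCT116 and 3470 ± 116 in LoVo, the highest line, and 1190 ± 16.3 in SKCO1, the lowest (SD, n = 4 each). HNRNPC, which packages nascent RNA, stood next in HCT116 at 1370 ± 49.7, followed by HNRNPA2B1 at 968 ± 44.6. SRSF1, the founding SR protein, was the most abundant of its family there at 753 ± 48.2, and its range overlapped those of HNRNPA3 (824 ± 40.6) above it and HNRNPD (732 ± 20.5) below it. The CLK kinases stood low on this scale, from 39.2 ± 0.83 for CLK3 to 6.55 ± 1.25 for CLK2 in HCT116, where HNRNPUL2 (38.8), HNRNPLL (35.9) and SRSF8 (24.5) were as low. Among members other than HNRNPR, SRSF6 differed most between lines, at 198 in HCT116 and 54.7 in SW1417, a ratio of 3.62. The tables were sequenced separately, so levels set across them are a description.

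Some members were measured poorly, and their values need that beside them. HNRNPR, a relative of SYNCRIP, had 0 to 72 counts per library, was at 0 in 16 of 56 libraries, and passed the filter on low counts in 4 of 7 lines; it was not tested in HCT116, DLD1 or SW948. CLK2 had 0 to 568 counts and was at 0 in 6 of 56 libraries, with a median coefficient of variation within groups of 53.5%. In SW948 it read 0 counts in control replicate 1 beside 201, 202 and 190 in the others, although these libraries summed to 14.6 to 16.4 M counts. PUF60, a partner of U2AF in choosing the 3′ splice site, varied by 12.9%, and the other 36 members by 2.3% to 11.1%. GENCODE lists transcripts outside the primary assembly for 4 members, CLK2, HNRNPR, HNRNPL and HNRNPH1 (10.3%), against 3.19% of the named genes of the tables. Whether identifiers left without a symbol hold part of the reads of CLK2, HNRNPR, HNRNPL, HNRNPH1 or PUF60 was not tested, so the fold changes of these genes are uncertain. Counts for HNRNPA1, HNRNPA3 and HNRNPC may be shared with pseudogenes or near copies that have rows of their own, and those of HNRNPUL2 with the readthrough gene HNRNPUL2-BSCL2. Gene counts add up all isoforms, so a shift between productive and decay isoforms of an SR gene is not visible in them.

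Splicing regulators fell broadly in HCT116. There 30 of 38 tested members were lower and 1 was higher at an adjusted p below 0.05 (edgeR, called below), where 18% of all 13834 genes tested were lower and 19% higher. The members' median log2 fold change was -0.38 and that of all genes 0.03. As a share of each library, the 39 genes took 1.7% to 1.74% of counts in the 4 control libraries and 1.36% to 1.41% in the 4 treated ones. Without CLK2, HNRNPR, HNRNPL, HNRNPH1 and PUF60 the count was 26 lower and 1 higher of 34. A trend of counts on transcript length differed somewhat between the groups, with slopes of -0.12 to 0.04 in controls and -0.04 to 0.13 with 2-MiCit. With that trend removed 31 members were lower and 0 higher, and 2935 and 2790 of all genes. The leukocyte list, of which 3 of 6 genes had rows and CD14 and LYZ were under 1 CPM, summed to 7.59 to 9.52 CPM in controls and 5.63 to 7.47 CPM with 2-MiCit. The epithelial list, with 5 of 6 genes over 1 CPM, summed to 3870 to 4310 CPM and 5240 to 6070 CPM. Most of that sum was KRT8 (mean 2450 CPM in controls and 3430 CPM with 2-MiCit) and KRT18 (1150 and 1650 CPM). CDH1 and CLDN4 were also higher with 2-MiCit, but EPCAM was lower (361 and 317 CPM). The colorectal list, in which CDX2 alone of 4 genes was over 1 CPM, summed to 16.9 to 17.6 CPM and 13.4 to 15 CPM. The part of these in the result was not tested.

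Among SR proteins in HCT116, 11 of 13 were lower, with a group median of -0.42. SRSF1 stood at 602, 613, 562 and 624 CPM in the control libraries and at 369, 351, 347 and 363 CPM with 2-MiCit. The groups were far apart, and SRSF1 was 1.67-fold lower (log2 fold change -0.74 ± 0.05 SE, edgeR adjusted p = 9.97e-06). TRA2B, a relative of the fly sex-determination factor transformer-2 that promotes exon inclusion, read 264, 257, 247 and 244 CPM in controls and 161, 152, 154 and 150 CPM with 2-MiCit. Again every treated library lay below every control, a 1.64-fold difference (-0.71 ± 0.05, adjusted p = 1.13e-05). Its paralog TRA2A fell by 0.55 on the log2 scale (SE 0.07), SRSF2, which also acts in transcription elongation, by 0.50 (SE 0.07) and SRSF7 by 0.47 (SE 0.07). SRSF3, SRSF4, SRSF6, SRSF9 and SRSF10 had log2 fold changes between -0.43 and -0.40, and SRSF11 one of -0.30. SRSF5 (-0.15 ± 0.07, adjusted p = 0.13) and the retrogene-derived SRSF8 (0.11 ± 0.05, adjusted p = 0.121) were not called.

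For hnRNPs in HCT116, 16 of 20 tested were lower and 1 higher, with a group median of -0.28. HNRNPM, which binds GU-rich introns and affects exon skipping, read 794, 742, 732 and 715 CPM in controls. With 2-MiCit it read 450, 424, 485 and 420 CPM, all below the controls, so that it was 1.67-fold lower (-0.74 ± 0.06 SE, adjusted p = 2.38e-05). HNRNPDL, an AU-rich element binder related to HNRNPD, read 340, 319, 333 and 333 CPM in controls and 216, 194, 206 and 197 CPM with 2-MiCit. That was a clear separation as well, of 1.63-fold (-0.70 ± 0.05, adjusted p = 1.51e-05). HNRNPAB, a single-stranded nucleic acid binder, read 485, 485, 467 and 457 CPM in controls and 304, 306, 316 and 294 CPM with 2-MiCit (-0.63 ± 0.04, adjusted p = 1.45e-05). The abundant HNRNPA1 read 1983, 1913, 1935 and 1882 CPM in controls and 1313, 1230, 1363 and 1236 CPM with 2-MiCit (-0.58 ± 0.05, adjusted p = 3.37e-05). Neither gene's groups overlapped. HNRNPL, a CA-repeat binder, had a log2 fold change of -0.44, HNRNPD one of -0.43, HNRNPF and HNRNPA2B1 of -0.37 each, HNRNPA0 and HNRNPA3 of -0.28 each and the G-tract binder HNRNPH1 of -0.21. PTBP1 (hnRNP I), the polypyrimidine tract repressor, had a smaller value of -0.26 ± 0.05 (adjusted p = 0.00177), near those of HNRNPC (-0.28), HNRNPU (-0.30) and HNRNPK (-0.23). HNRNPH3 was at the threshold (-0.16 ± 0.05, adjusted p = 0.033) and lost its call without any 1 of 5 libraries, control replicates 1, 2 and 4 and treated replicates 2 and 4, with adjusted p up to 0.0924. HNRNPUL2 went the other way, at 103, 122, 115 and 117 CPM in controls and 131, 142, 133 and 124 CPM with 2-MiCit (0.22 ± 0.06, adjusted p = 0.0206). The gap between its highest control and lowest treated library was narrow, and the call was lost without treated replicate 2 or 3 and with the length trend removed (adjusted p up to 0.185). HNRNPUL1 (-0.20 ± 0.07, adjusted p = 0.0546), HNRNPH2 (0.02) and HNRNPLL (-0.06) were not called.

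The CLK kinases split in HCT116. CLK3 read 52.1, 48.2, 50.6 and 46.9 CPM in controls and 32.3, 30, 28 and 29.7 CPM with 2-MiCit. It was 1.64-fold lower (-0.71 ± 0.07 SE, adjusted p = 4.27e-05). CLK2 read 9.83, 6.23, 6.9 and 8.43 CPM in controls and 3.07, 3.63, 1.73 and 2.06 CPM with 2-MiCit, from 108 to 141 counts against 27 to 61. Its groups did not overlap and it was 2.97-fold lower (-1.57 ± 0.24, adjusted p = 0.000673), but when the spread was estimated over all lines of the table the adjusted p was 0.204. CLK1 stayed level, at 29.6, 23.6, 25.7 and 25.3 CPM in controls and 29.4, 24.7, 25.7 and 25.2 CPM with 2-MiCit (0.02 ± 0.09, adjusted p = 0.882). CLK4, its close paralog, read 8.85, 8.38, 6.78 and 6.81 CPM in controls and 10.3, 8.27, 7.54 and 9.27 CPM with 2-MiCit (0.21 ± 0.13, adjusted p = 0.247), with overlapping groups. PUF60 read 204, 252, 260 and 159 CPM in controls and 137, 103, 122 and 104 CPM with 2-MiCit, below every control but with a wide control spread (-0.91 ± 0.16, adjusted p = 0.0032).

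**Figure D1:**
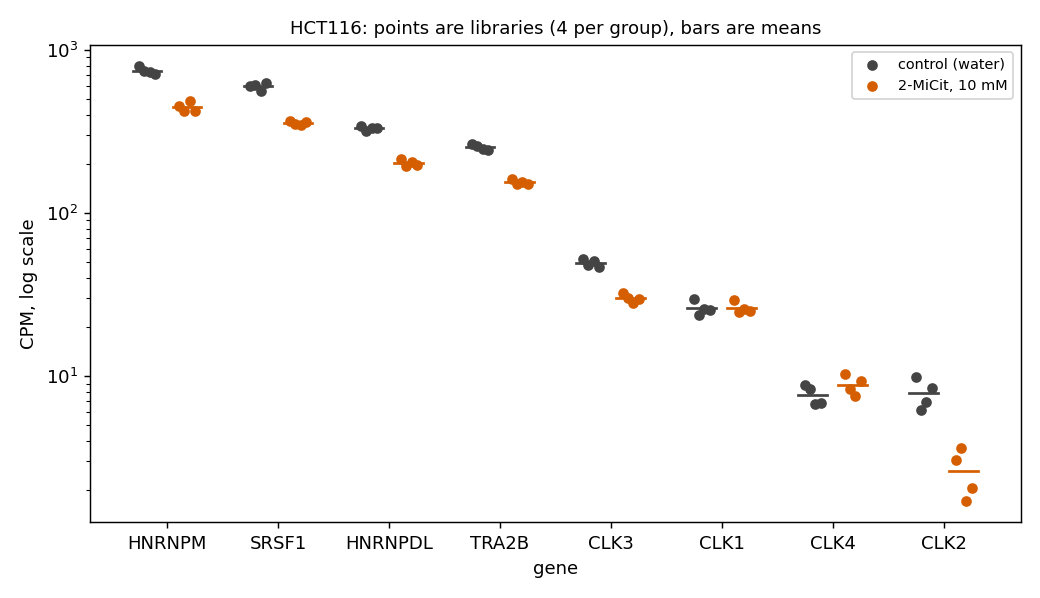
CPM (log axis) of 8 members in the 8 HCT116 libraries, points for libraries and bars for means of 4. The treated points of HNRNPM, SRSF1, HNRNPDL, TRA2B, CLK3 and CLK2 lie below all controls, and those of CLK1 and CLK4 overlap them.

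SKCO1 had the next highest count of called members, at much smaller sizes. In this line 20 of 39 were lower and 1 higher, where 10.8% of 14651 genes were lower and 8.1% higher, and the median log2 fold change was -0.08 for members and 0.01 for all genes. The 39 genes took 1.13% to 1.15% of control counts and 1.08% to 1.1% of treated counts. The leukocyte list, with 3 of 6 genes in the table and CD14 under 1 CPM, summed to 76.4 to 81.5 CPM in controls and 83.2 to 88 CPM with 2-MiCit, and its part in the result was not tested. The lower calls covered 7 of 13 SR proteins, 13 of 21 hnRNPs and 0 of 4 CLK kinases. Among called members PTBP1 had the largest drop, from 628, 629, 653 and 636 CPM to 542, 560, 567 and 573 CPM. All treated libraries lay below the controls, for a 1.14-fold difference (-0.18 ± 0.02 SE, adjusted p = 0.00016). HNRNPD (AUF1), which binds AU-rich elements in unstable mRNAs, went from 212, 212, 206 and 211 CPM to 180, 190, 192 and 189 CPM (-0.16 ± 0.02, adjusted p = 0.00038). TRA2B went from 195, 201, 202 and 197 CPM to 176, 179, 184 and 180 CPM (-0.14 ± 0.02, adjusted p = 0.000558), and SRSF2 from 321, 315, 319 and 320 CPM to 287, 281, 295 and 298 CPM (-0.14 ± 0.02, adjusted p = 0.000834). None of these 3 had overlapping groups. The other SR genes called were SRSF1 and SRSF9 (-0.12 each), SRSF3 (-0.09), SRSF7 (-0.08) and SRSF6 (-0.07), the last lost in 7 of 8 fits without 1 library. Among hnRNPs, HNRNPUL1 had -0.13, HNRNPA2B1 and HNRNPAB -0.12 each, HNRNPM -0.11, and HNRNPC, HNRNPK and HNRNPH3 -0.10 each. HNRNPA1, HNRNPA3 and HNRNPF had -0.09 each and HNRNPU -0.07, also lost in 7 of those 8 fits. HNRNPH2, an X-linked G-tract binder, was higher, at 121, 119, 115 and 119 CPM in controls and 124, 128, 124 and 127 CPM with 2-MiCit (0.09 ± 0.02, adjusted p = 0.0173), and its call was lost without control replicate 3 or treated replicate 2 or 4. Using the authors' gene-specific scaling factors left 13 members lower and 0 higher, and 767 and 430 of all genes. With 1 fit over the 3 lines these were 12 and 0, and 1002 and 616 of all genes.

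In HT29 the lower calls were hnRNPs and CLK3, and the families were not tested against each other. There 8 of 39 members were lower, 7 of 21 hnRNPs and CLK3, and 1 of 13 SR proteins was higher, where 3.02% of 13887 genes were lower and 4.65% higher. The median was -0.07 for members and 0.00 for all genes. The colorectal list, with CDX1 under 1 CPM, summed to 205 to 222 CPM in controls and 232 to 273 CPM with 2-MiCit. The endothelial list, of which PECAM1 alone had a row, was under 1 CPM in both groups (0.292 to 0.433 and 0.467 to 0.794 CPM), and the part of these lists was not tested. HNRNPA3, a relative of HNRNPA2B1, read 418, 425, 406 and 359 CPM in controls and 334, 349, 318 and 319 CPM with 2-MiCit (-0.28 ± 0.05 SE, adjusted p = 0.00929). CLK3 read 48.4, 47.4, 48.8 and 48.1 CPM in controls and 40.1, 39.3, 40.1 and 42.4 CPM with 2-MiCit (-0.25 ± 0.04, adjusted p = 0.00391). HNRNPDL read 246, 226, 232 and 232 CPM in controls and 201, 181, 202 and 202 CPM with 2-MiCit (-0.25 ± 0.04, adjusted p = 0.00693). For these 3 genes each treated library lay below each control. HNRNPA2B1, HNRNPAB, HNRNPD, HNRNPC and HNRNPA1 were also lower, with log2 fold changes from -0.24 to -0.14. SRSF8 was the member called higher, at 69.4, 67.8, 65.5 and 66.6 CPM in controls and 72.6, 77.6, 76.6 and 73.5 CPM with 2-MiCit (0.16 ± 0.04, adjusted p = 0.0311), a call that was lost in 7 of the 8 fits that left out 1 library. The lower count was 4 without control replicate 3 (153 of all genes, against 419 in the main fit). It was 5 without control replicate 1 or treated replicate 3 (175 and 179 of all genes). It was 3 with the authors' gene-specific scaling factors (181 of all genes) and 13 with 1 fit over the 3 lines (1250 of all genes).

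In LoVo nearly all members leaned down and 1 was called. TRA2B read 257, 260, 258 and 249 CPM in controls and 223, 227, 224 and 219 CPM with 2-MiCit (-0.20 ± 0.04 SE, adjusted p = 0.0424), with no overlap. That is 1 of 39 lower and 0 higher, where 0.702% of 13677 genes were lower and 1.59% higher. The log2 fold change was below 0 in 36 of 39 members, against 50.5% of all genes, and their median was -0.12 against 0.00. At an unadjusted p below 0.05 there were 19 lower members (11% of all genes) and 0 higher (10.3% of all genes), and in 14 members every treated library lay below every control (6.31% of all genes). DESeq2 called 10 members and 477 of all genes lower, where edgeR called 96 genes lower. The number of members called by edgeR was 6 without control replicate 1 (540 of all genes lower). It was 0 without any 1 of control replicates 2 and 3 and the 4 treated libraries (4 to 38 of all genes lower).

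DLD1 gave 0 called members of 38 in edgeR in either direction, where 0% of 13551 genes were called lower and 0.148% higher. At an unadjusted p below 0.05, 12 members were lower and 2 higher, against 8.64% and 9.05% of all genes. DESeq2 called 4 members lower and 0 higher, and 149 and 324 of all genes. Below 0 lay 28 of 38 log2 fold changes, against 49.6% of all genes, with a median of -0.11 against 0.00. In 14 members all treated libraries lay below all controls, against 6.13% of all genes. They were 8 of 20 tested hnRNPs and 6 of 13 SR proteins, with SRSF2 at -0.31 ± 0.11 (adjusted p = 0.258) and SRSF5 at -0.28 ± 0.08 (adjusted p = 0.202). Counts depended on transcript length most in control replicate 1 (slope -0.32 in log2), and with such trends removed the members' median was -0.05. The colorectal list, with CDX1 at 0, summed to 232 to 252 CPM in controls and 203 to 231 CPM with 2-MiCit, and its part was not tested. A single fit over the 4 lines called 10 members and 612 of all genes lower.

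SW948 and SW1417 had 0 called members each in edgeR. In SW948, 0% of 13334 genes were called lower and 0% higher, 16 of 38 members were below 0 (49.6% of all genes), and the median was 0.02. At an unadjusted p below 0.05, 0 members were lower and 0 higher there, against 3.07% and 3.59% of all genes, and DESeq2 called 0. Of the SW948 libraries, treated replicate 2 had the steepest trend of counts on transcript length (slope -0.25 in log2). Without that library 16 of 38 members were below 0, the median was 0.01, and 0 members were called. In SW1417, a line in which 4.05% of 14089 genes were called lower and 2.94% higher, 27 of 39 members were below 0 (49.9% of all genes) with a median of -0.04. At an unadjusted p below 0.05, 13 of them were lower and 1 higher, against 11% and 9.99% of all genes. In 5 members the treated libraries all lay below the controls, against 7.44% of all genes. DESeq2 called 7 members lower, and 668 of all genes in place of 570. In edgeR 10 were lower without treated replicate 4 and 5 without control replicate 4, where 670 and 595 of all genes were lower.

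**Figure D2:**
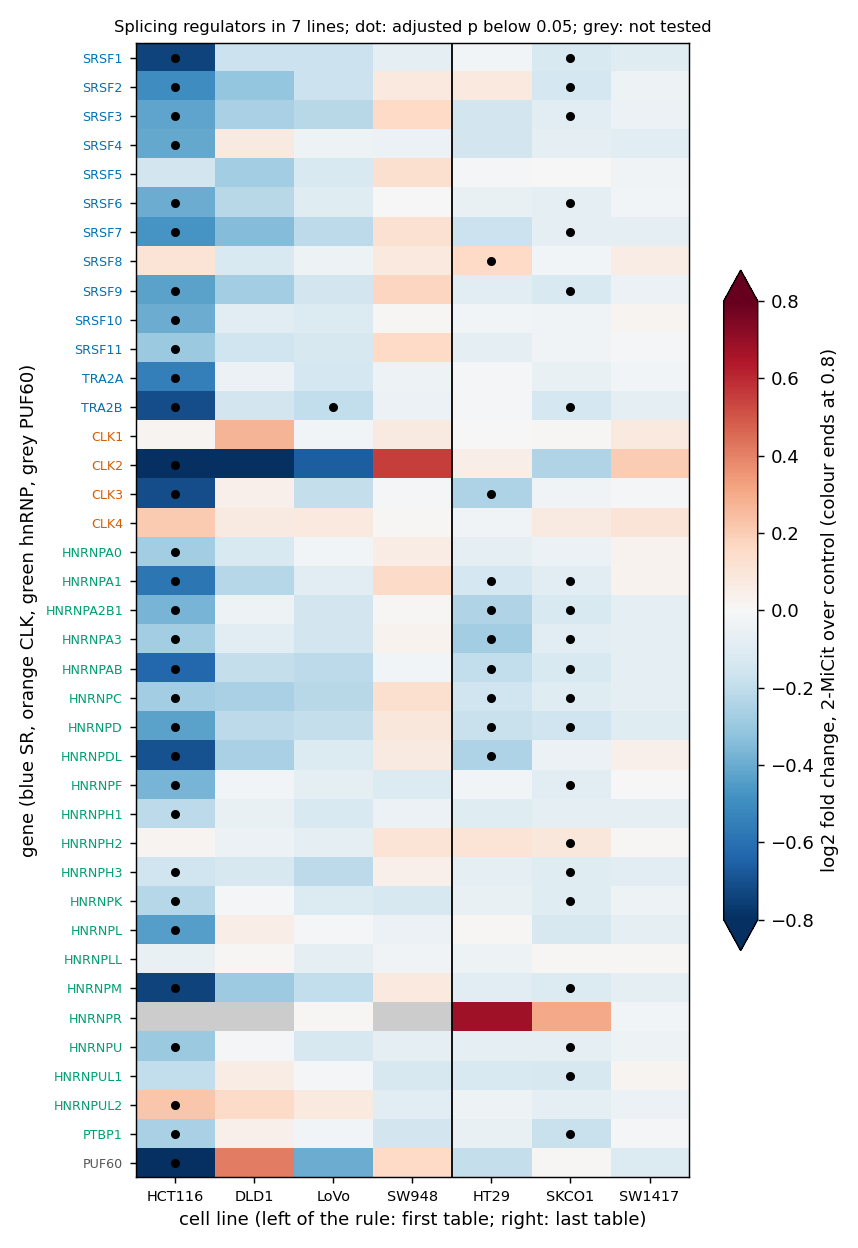
Log2 fold change (2-MiCit over control) of the 39 members in 7 lines as colour, blue lower and red higher, with a dot where the adjusted p was below 0.05 and grey where a gene was not tested. HCT116 carries 31 dots, SKCO1 21, HT29 9, LoVo 1 and the other lines 0.

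The lines shared lower calls, which are to be read beside the 78.9% of tested members that were lower in HCT116, so that most lower calls of another line would be shared whichever members they fell on. Of the 30 members lower in HCT116, 19 (63.3%) were also lower in SKCO1, which is 95% of the 20 in that line, and 8 (26.7%) were lower in HT29, which is 100% of the 8 there. The 7 members lower in 3 lines were TRA2B and the hnRNPs HNRNPA1, HNRNPA2B1, HNRNPA3, HNRNPAB, HNRNPC and HNRNPD. A further 14 were lower in 2 lines and 10 in 1. No member was called in 4 lines or in opposite directions. SRSF5, CLK1, CLK4, HNRNPLL and HNRNPR were called in no line. For CLK1 the log2 fold changes ran from -0.02 ± 0.08 in LoVo to 0.27 ± 0.09 in DLD1 (adjusted p = 0.253), and for CLK4 from -0.03 ± 0.11 in HT29 to 0.21 ± 0.13 in HCT116.

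**Figure D3:**
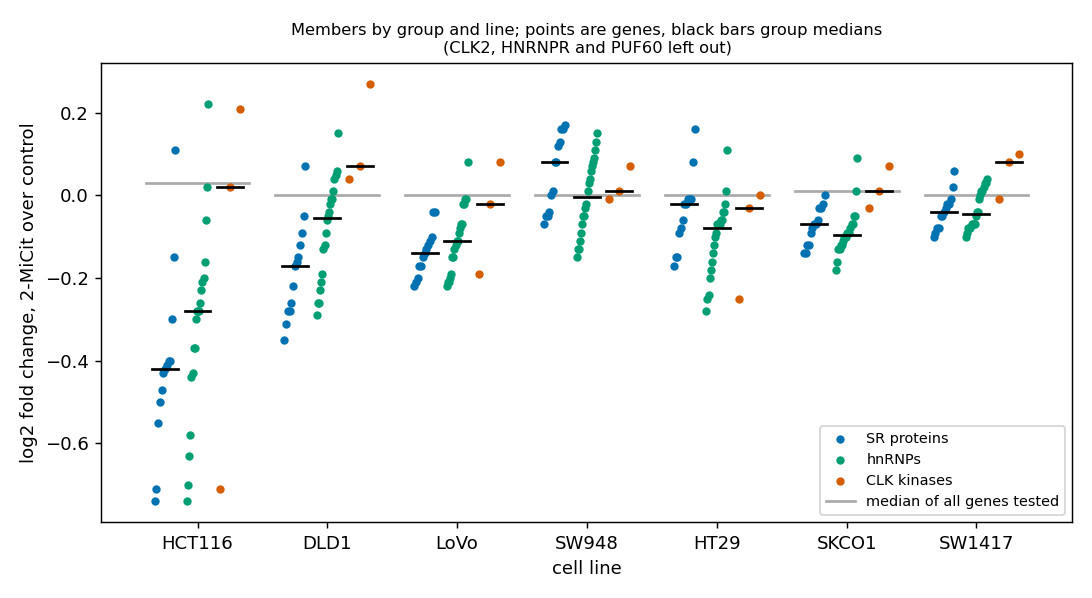
Log2 fold changes of SR proteins, hnRNPs and CLK kinases in each line, points for genes, black bars for group medians and grey bars for the median of all genes tested; CLK2, HNRNPR and PUF60 are left out. In HCT116 the SR and hnRNP points lie mostly under the grey bar, and in SW948 they lie around it.

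Whether the response differed between lines was tested within each table with 1 edgeR fit. In the first table it differed for 26 of 39 members, where 18% of 15800 genes did, among them 11 of 13 SR proteins, 13 of 21 hnRNPs, CLK3 and PUF60. The smallest adjusted p-values were those of TRA2B (2.93e-08), HNRNPDL (2.33e-07), SRSF1 (5.83e-07), CLK3 (7.23e-05), HNRNPAB (9.17e-05) and HNRNPA1 (0.000176). Leaving out 1 replicate number in all groups left 22, 11, 17 and 9 members for numbers 1 to 4. The response was lower in HCT116 than in SW948 for 25 members (9.12% of genes), and 1 member, HNRNPUL2, differed the other way (9.6% of genes). HCT116 also lay below DLD1 for 14 members (3.13% of genes) and below LoVo for 13 (2.25% of genes). TRA2B, for instance, fell more in HCT116 by a log2 difference of -0.54 ± 0.06 against DLD1, -0.51 ± 0.06 against LoVo and -0.64 ± 0.06 against SW948. DLD1 lay below SW948 for 9 members (7.74% of genes), SRSF5 (-0.40 ± 0.09, adjusted p = 0.0117) and HNRNPDL (-0.33 ± 0.07, adjusted p = 0.012) among them, although no member was called in either line alone. The libraries with the steepest length slopes both enter this contrast, DLD1 control replicate 1 (-0.32) and SW948 treated replicate 2 (-0.25). The length trend was not removed in any fit between lines, so its part in these differences was not tested. DLD1 lay below LoVo, and LoVo below SW948, for 0 members (0.133% and 0% of genes). In the other direction 0 members differed as well, and the share of genes there is not given.

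In the last table the response differed for 7 of 39 members, where 5.49% of 16090 genes did. HNRNPDL had the smallest adjusted p (0.000552): its log2 fold change was -0.25 in HT29, -0.05 in SKCO1 and 0.04 in SW1417, and HT29 lay below SW1417 by -0.30 ± 0.04 and below SKCO1 by -0.20 ± 0.04. CLK3 followed (0.00761), at -0.25 in HT29, -0.03 in SKCO1 and -0.01 in SW1417. PTBP1 (0.0223) was lowest in SKCO1 and lay below SW1417 there by -0.19 ± 0.04, and SRSF8 (0.0262) was higher in HT29 than in SKCO1 by 0.18 ± 0.04. HNRNPA1 (0.0368), HNRNPUL1 (0.0398) and HNRNPA3 (0.0467) were the others. By pairs, 2 members were lower (1.68% of genes) and 1 higher (2.45%) in HT29 than in SKCO1, 4 were lower in HT29 than in SW1417 (1.45%) and 1 was lower in SKCO1 than in SW1417 (0.447%). Leaving out replicate numbers 1 to 4 in turn gave counts of 1, 1, 1 and 3 in place of 7, and the other scaling tried gave 4.

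**Figure D4:**
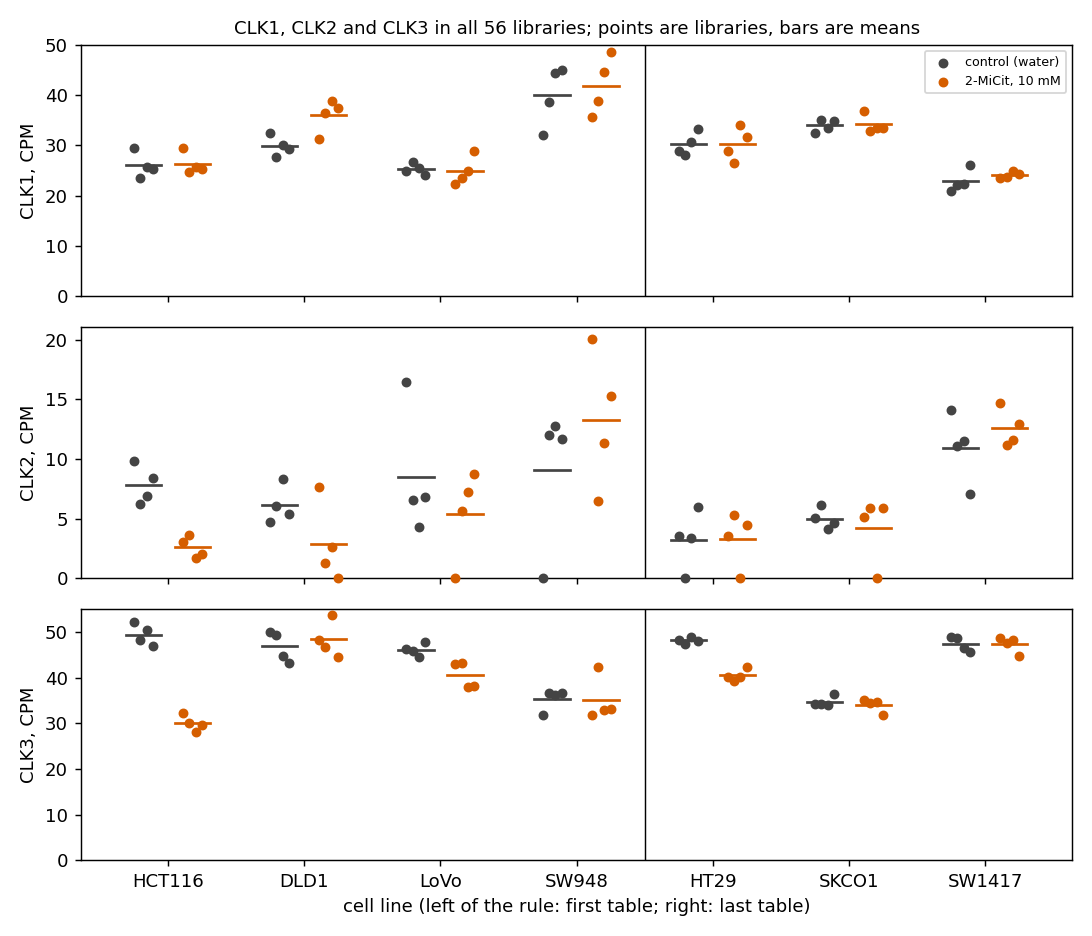
CPM of CLK1, CLK2 and CLK3 in all 56 libraries, points for libraries and bars for means of 4, on axes that start at 0. CLK3 separates the groups in HCT116, LoVo and HT29, CLK1 in no line, and CLK2 reads 0 in 6 libraries of both kinds.

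Other genes of the splicing pathway, listed by function, were read beside the regulators and against the share of all genes called lower, 18% in HCT116, 10.8% in SKCO1 and 3.02% in HT29. In HCT116, 27 of 38 core spliceosome genes were lower and 0 higher (median -0.29), among them the U5 GTPase gene EFTUD2 (-0.60 ± 0.05) and the Sm protein gene SNRPF (-0.58 ± 0.09). SR-related and speckle genes had 11 of 22 lower and 0 higher, LUC7L (-0.52) and RBM25 (-0.49) with the largest values. Of the other splicing regulators 18 of 32 were lower and 4 higher, with the muscleblind gene MBNL2 at 0.89 ± 0.06 and RBM47 at 0.45 ± 0.07. The kinases and the importin that act on SR proteins had 1 of 5 lower (20%, near the share of all genes), SRPK1 at -0.26 ± 0.06, and genes of nonsense-mediated decay 5 of 15 lower and 2 higher, MAGOHB at -0.63 and EIF4A3 at -0.41. SKCO1 had 25 of 38 core spliceosome genes lower and 0 higher (median -0.11), SNRPC (-0.18) and PRPF19 (-0.17) with the largest values, and 14 of 32 other regulators lower and 2 higher, with KHSRP at -0.13 and RBM47 at 0.15. Its speckle genes had 3 of 22 lower (13.6%, near the share of all genes), RNPS1 (-0.12) and RBM10 (-0.11) first, and its decay genes 3 of 15, MAGOH (-0.17) and MAGOHB (-0.16) first. In HT29, 2 of 38 core genes were lower (5.26%, also near it), PRPF4 (-0.25) and SNRPD1 (-0.16), as were 2 of 22 speckle genes, LUC7L2 (-0.25) and RBM25 (-0.20), and 1 of 15 decay genes, MAGOHB (-0.25). Of the other regulators there 4 of 31 were higher, MBNL3 (0.23) among them, and 1 was lower, where 4.65% of all genes were higher. SW1417 had 2 of 38 core genes lower, SNRPG (-0.13) and SNRPB (-0.10), and 1 of 15 decay genes, EIF4A3 (-0.09). These shares (5.26% and 6.67%) were near the 4.05% of all genes lower there. Of its other regulators 1 of 31 was higher, RBMX (0.07), also near the 2.94% of all genes. LoVo had 1 of 38 core genes lower, SF3A3 (-0.24), and 1 of 32 other regulators, PTBP2 (-0.36), where 0.702% of all genes were lower. DLD1 and SW948 had 0 calls on these lists.

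Gene counts carry no isoform information, but in the last table the authors divided each gene by a factor of its own, which varied from gene to gene within a library, while the first table had a single factor per library. Where such factors follow average transcript length they would move with isoform use, and the labels do not say what they follow. With limma on the log2 factor, 0 members were called in HT29 (0% of 11600 genes), SKCO1 (0% of 12188) and SW1417 (0.00842% of 11870). Counts were high enough to test 37, 37 and 38 members in these lines. On simulated factors the test recovered 74% to 78.5% of log2 shifts of 0.3, and smaller shifts were not tried. At an unadjusted p below 0.05 there were 3, 3 and 2 members in these lines, of 741, 719 and 636 genes. The members' shifts ran from -0.099 to 0.035 in HT29, from -0.053 to 0.143 in SKCO1 and from -0.032 to 0.029 in SW1417.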

How the data were processed

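Total RNA was taken from each line after 2-MiCit or water and made into stranded mRNA libraries, per the labels' protocols. The authors deposited raw counts per gene, and normalized counts as a signal on a linear scale; bcl2fastq 2.20.0, Trimmomatic 0.39, Salmon 1.5.0, DESeq2 and GRCh38.p13 are named in the submitters' processing notes. Salmon shares reads between similar transcripts, so genes with near copies are uncertain. Identifiers were matched to GENCODE; 1147 of the first table and 1169 of the last kept no symbol (none found, or one held by a row with more counts) with 3.31% to 4.46% of the counts per library, and were kept in the fits unnamed.

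The members and lists were chosen with earlier results of these data known. Each line was tested alone on the deposited counts with edgeR 4.0.16 in R 4.3.3 (filterByExpr, TMM factors, robust quasi-likelihood F test, two-sided), with Benjamini-Hochberg adjustment over all genes tested; a gene was called at an adjusted p below 0.05. Differences between lines used 1 edgeR fit per table, all differences at once and then by pairs. Scaling factors (raw over normalized count, at least 50 counts in every library of a line) were tested with limma 3.58.1. CPM use TMM factors. Values are named by rule: each CLK gene in HCT116; up to 3 called members higher and 3 lower per line, by fold change; up to 6 per table by the test between lines; others were added to describe the groups. On simulated counts for HCT116 (13834 genes) the line test recovered 68% of 1.5-fold and 73% of 2-fold changes, and for DLD1 (13551 genes) 25% and 68%. There 10.2% and 12.3% of the calls made were false, above the nominal 5%. The other lines recovered 48% to 81% and 78% to 94%, with 3.82% to 6.98% of calls false. Far fewer genes were changed in the simulation than were called in HCT116, so these shares may not carry over to that line. Alternatives were DESeq2 1.42.0, other scalings and filters, a length trend, a replicate block, 1 fit over a table and leaving out each library. The labels do not say that replicate numbers pair the libraries, so the main tests were unpaired.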

Additional observations from a re-analysis of the deposited data

Results flagged for a closer look

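For each member called in a line, and for the CLK genes in HCT116, both groups of 4 libraries were searched for 1 library apart from the others by Dixon's ratio at the 95% level. Of 128 groups, 6 had one, and chance gives about 1 in 20. In HCT116, SRSF11 read 201 CPM in treated replicate 1 against 175 to 177 in the others, and HNRNPH1 643 CPM in control replicate 1 against 585 to 590. In HT29, HNRNPDL read 181 CPM in treated replicate 2 against 201 to 202. In SKCO1, SRSF1 read 373 CPM in treated replicate 3 against 383 to 385, SRSF7 158 CPM in control replicate 2 against 153 to 154, and HNRNPH3 136 CPM in treated replicate 2 against 127 to 129.

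The response to 2-MiCit differed between the lines of the first table, by the edgeR test of all treatment-by-line differences, for TRA2B (adjusted p = 2.93e-08), HNRNPDL (2.33e-07), SRSF1 (5.83e-07), CLK3 (7.23e-05), HNRNPAB (9.17e-05) and HNRNPA1 (0.000176). In the last table it differed for HNRNPDL (0.000552), CLK3 (0.00761), PTBP1 (0.0223), SRSF8 (0.0262), HNRNPA1 (0.0368) and HNRNPUL1 (0.0398).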

How the results depend on the processing

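Of 62 calls of a member in a line, 39 held under every alternative run and none changed sign; by line 28 of 31 held in HCT116, 9 of 21 in SKCO1, 2 of 9 in HT29 and 0 of 1 in LoVo. Lower calls in HCT116 were 29 to 32 throughout. DESeq2 raised the lower calls from 0 to 4 in DLD1, from 1 to 10 in LoVo and from 0 to 7 in SW1417. Over all genes it raised them from 0 to 149, from 96 to 477 and from 570 to 668. With 1 fit over a table there were 10 lower in DLD1, 2 in LoVo, 13 in HT29 and 12 in SKCO1, and 2 higher in HCT116, 2 in HT29 and 0 in SKCO1. Over all genes 612, 82, 1250 and 1002 were then lower, and 2250, 1179 and 616 higher. With the authors' gene-specific factors there were 3 lower and 0 higher in HT29 (181 and 294 of all genes). In SKCO1 there were 13 lower and 0 higher (767 and 430 of all genes). With the length trend removed, LoVo had 0 lower and HCT116 0 higher. With the other scaling (RLE), the response differed between lines for 4 members in the last table. The labels do not say that replicate numbers pair the libraries, and in no line did all same-numbered pairs correlate above 0.1. In HCT116 same-numbered pairs correlated at 0.08 to 0.28 and others at -0.20 to 0.12, so pairing there is unsettled. A replicate block gave 14 lower in HT29, 3 in SW1417 and 0 in LoVo, and 2 higher in HCT116. Over all genes it called 1034, 658 and 102 lower in HT29, SW1417 and LoVo, and 3674 higher in HCT116 (2635 without it). With the block, 19 and 8 members had a response that differed between lines in the first and last table. Leaving out 1 library gave 29 to 31 lower and 0 to 1 higher in HCT116, 0 to 6 lower in LoVo, 4 to 10 lower and 0 to 1 higher in HT29, 14 to 20 lower and 0 to 1 higher in SKCO1, and 0 to 10 lower in SW1417. Leaving out a replicate number gave 9 to 22 members with differing responses in the first table and 1 to 3 in the last. The split of all genes moved in LoVo, from 218 higher and 96 lower to 459 and 477 with DESeq2 and 297 and 272 with the length trend removed. Low counts limit HNRNPR, at 0 to 72 per library. CLK2 reads of 0 occurred beside replicates with 190 to 202 counts at like depth. The causes of these changes were not tested.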

Other observations

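The annotation of the members was set beside their response, as a description with no test. GENCODE lists a nonsense-mediated decay transcript for 30 of the 39 members (76.9%), all 13 SR proteins among them, and for 41% of the 15072 protein-coding genes of the tables. A retained intron transcript is listed for 29 members (74.4%) and 54.1% of those genes, and members have a median of 12 annotated transcripts against 7. In HCT116 the 29 tested members with a decay transcript had a median log2 fold change of -0.40 and 23 were lower, and the 9 without one had a median of -0.28 and 7 were lower. In SKCO1 the medians were -0.08 and -0.09, and in HT29 -0.07 and -0.07. For a retained intron transcript the medians with and without one were -0.41 and -0.30 in HCT116, -0.09 and -0.05 in SKCO1, and -0.09 and -0.04 in HT29. Lower were 23 of 29 with one and 7 of 9 without in HCT116. The counts were 17 of 29 and 3 of 10 in SKCO1, and 7 of 29 and 1 of 10 in HT29. These medians went the same way in each of these lines, and the difference was not tested.

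Members with the E-box letters in their promoter window had a median of -0.28 in HCT116 (6 of 9 lower) and those without it -0.37 (20 of 25 lower). For the TGACGT half-site the values were -0.30 (5 of 8 lower) and -0.33 (21 of 26 lower). For the CCAAT box, 15 of 20 members with it and 11 of 14 without it were lower in HCT116 (medians -0.28 and -0.42), 11 of 21 and 7 of 14 in SKCO1 (-0.09 and -0.08), and 6 of 21 and 1 of 14 in HT29 (-0.07 and -0.04). With and without the E-box the medians were -0.10 and -0.08 in SKCO1, and -0.09 and -0.06 in HT29. With and without the half-site they were -0.10 and -0.08 in SKCO1, and -0.03 and -0.07 in HT29. For none of these motifs did the lines give a common direction.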
